A study of Mus musculus with 4 samples.

Results

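The 9 genes described here, Tbx21, Eomes, Zbtb16, Gata3, Foxp3, Ikzf2, Tcf7, Lef1 and Tox, encode transcription factors that set or hold the identity of T cells, natural killer (NK) cells and innate lymphoid cells. They were the rows of the deposited gene lists that carried those symbols, 9 of 32344 listed genes, with 1 row each. Their unique molecular identifiers (UMIs, each standing for 1 captured molecule) were read in 14994 lymphocytes out of 32878 barcodes that held at least 500 UMIs. Liver leukocytes carrying CD45 had been sorted from mice after a tamoxifen week, and their RNA was counted cell by cell with a probe-based assay on fixed cells. There were 4 libraries. The GS library came from GS(+/delta)Hep mice, in which 1 glutamine synthetase allele was deleted, and the URI library from URI(+/delta)Hep mice, in which 1 allele of URI was deleted, while WT 1 and WT 2 came from WT mice. Tamoxifen, the drug that switches on inducible Cre recombinases, was given in all 3 groups, the WT mice included, and each library pooled 5 mice. The cells in which the alleles were deleted, the recombinase and its promoter, and the age and sex of the mice are not given in the sources used here beyond the suffix Hep in the genotype names.

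Lymphocytes were assigned to 6 classes by the raw UMIs of 6 genes that are not described as results. CD4 T cells had UMIs of Cd3e and Cd4 and none of Cd8a, Trdc, Ncr1 or Cxcr6 (3651 cells). CD8 T cells had Cd3e and Cd8a and none of Cd4, Trdc or Ncr1 (4510 cells). Natural killer T (NKT) cells had Cd3e and Cxcr6 and none of Cd8a, Trdc or Ncr1 (2661 cells). Gamma-delta T cells had Cd3e and Trdc and none of Cd4, Cd8a or Ncr1 (991 cells). NK cells had Ncr1 and none of Cd3e, Cxcr6, Cd4 or Cd8a (2987 cells), and ILC1 had Ncr1 and Cxcr6 and none of Cd3e, Cd4 or Cd8a (194 cells). The NKT class is defined by Cxcr6 on a T cell and not by its antigen receptor, so other T cells with Cxcr6 can fall in it.

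T-bet, encoded by Tbx21, and eomesodermin, encoded by Eomes, are T-box factors that drive interferon-gamma and cytotoxic genes, and in mouse liver Eomes is the factor that marks NK cells apart from ILC1. PLZF, encoded by Zbtb16, sets up the innate-like state of NKT cells, GATA3 acts in T cell commitment and in type 2 responses, and FOXP3 defines regulatory T cells, many of which also carry Helios, encoded by Ikzf2. TCF-1 (Tcf7) and LEF-1 (Lef1) are related high-mobility-group factors of naive and memory T cells that also act downstream of Wnt signalling, and TOX is a high-mobility-group factor needed for CD4 T cell and innate lymphoid development and for the persistence of chronically stimulated CD8 T cells.

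The start regions of the T-box pair and of the Tcf7 and Lef1 pair are shown because Tbx21 ran against Tcf7 and Lef1 across the classes and Eomes set NK cells apart from the others. They are taken from RefSeq on GRCm38.p6, each 300 bases long and on the gene's own strand. Each runs from 250 bases before the listed start to 50 bases after it. Tbx21 lies at chr11:97115282-97115581 on the minus strand, Eomes at chr9:118477939-118478238 on the plus strand, Tcf7 at chr11:52282965-52283264 on the minus strand and Lef1 at chr3:131110047-131110346 on the plus strand. Capitals mark a match to a searched motif.
Tbx21: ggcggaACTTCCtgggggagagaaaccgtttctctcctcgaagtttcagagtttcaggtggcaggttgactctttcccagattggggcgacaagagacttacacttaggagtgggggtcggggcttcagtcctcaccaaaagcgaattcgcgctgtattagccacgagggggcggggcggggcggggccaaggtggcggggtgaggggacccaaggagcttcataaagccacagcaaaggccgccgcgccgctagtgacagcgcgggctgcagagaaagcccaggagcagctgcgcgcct
Eomes: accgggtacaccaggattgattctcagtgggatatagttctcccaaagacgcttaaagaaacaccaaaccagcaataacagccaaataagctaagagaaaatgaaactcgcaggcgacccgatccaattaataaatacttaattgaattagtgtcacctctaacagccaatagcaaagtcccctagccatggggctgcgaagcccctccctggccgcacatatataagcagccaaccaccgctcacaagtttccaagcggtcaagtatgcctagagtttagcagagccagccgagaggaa
Tcf7: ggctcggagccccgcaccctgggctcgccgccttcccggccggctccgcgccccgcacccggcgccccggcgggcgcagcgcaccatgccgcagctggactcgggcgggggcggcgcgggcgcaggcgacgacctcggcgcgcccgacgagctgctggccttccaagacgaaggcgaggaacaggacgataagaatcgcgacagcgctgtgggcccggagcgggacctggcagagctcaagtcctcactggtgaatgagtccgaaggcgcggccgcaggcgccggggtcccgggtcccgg
Lef1: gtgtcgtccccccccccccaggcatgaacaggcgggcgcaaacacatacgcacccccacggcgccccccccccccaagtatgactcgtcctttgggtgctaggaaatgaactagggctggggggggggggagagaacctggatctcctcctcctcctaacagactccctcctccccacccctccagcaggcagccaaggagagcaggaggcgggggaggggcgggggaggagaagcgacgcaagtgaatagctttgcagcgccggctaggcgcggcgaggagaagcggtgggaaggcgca
A start region was matched by symbol for 6 of the 9 genes in the RefSeq table used, and Zbtb16, Ikzf2 and Tox are named only. Where it lists several starts (2 for Foxp3, 2 for Tcf7 and 4 for Lef1), the first listed was used, which need not be the most upstream. The regions used for Foxp3 (chrX:7579426-7579725) and Gata3 (chr2:9878551-9878850) lie inside the GENCODE spans of these genes given below. Both strands were searched for 5 motifs that do not contain one another, and their share among all 32851 RefSeq start regions of this length was counted. The T-box motif was spelled GGTGTGA and occurred in 3.98% of regions. The TCF/LEF motif was spelled CTTTGA and occurred in 16.0%. The motif for GATA factors was spelled AGATAA and occurred in 11.2%, that for RUNX factors was spelled TGTGGT and occurred in 16.8%, and that for ETS factors was spelled GGAAGT and occurred in 23.8%. Among the 6 regions there was 1 match, the ETS letters on the reverse strand of the Tbx21 region. The guanine and cytosine content was 76.3% in Tcf7, 67.3% in Lef1 and in Gata3, 62.0% in Tbx21, 47.3% in Eomes and 40.7% in Foxp3, against a median of 52.7% over all start regions. The Tcf7 region held 45 CpG dinucleotides, the Foxp3 region 6, and the median region 7. In the Tcf7 region an ATG lies before the listed start, and its reading frame stays open to the end of the region. Part of the Tcf7 region may therefore be coding sequence and not upstream DNA.

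In the GENCODE annotation of GRCm38 (mm10), Tbx21 spans 97098071 to 97115331 and Tcf7 52252371 to 52283014 on the minus strand of chromosome 11. Eomes spans 118478212 to 118486132 on the plus strand and Zbtb16 48654297 to 48836222 on the minus strand of chromosome 9. Gata3 lies on chromosome 2 from 9857078 to 9890034 (minus), Foxp3 on chromosome X from 7573644 to 7595245 (plus), Ikzf2 on chromosome 1 from 69531214 to 69687245 (minus), Lef1 on chromosome 3 from 131110471 to 131224356 (plus), and Tox on chromosome 4 from 6686353 to 6991557 (minus).

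The libraries held between 24041049 and 51920505 UMIs and between 7453 and 9096 cells, with median UMIs per cell from 2659 in WT 2 to 4973 in the URI library. No whole barcode was shared between libraries. The gates matched defining markers they had not used: Cd8b1 stood at 1478 to 2242 CPM (the gene's UMIs as a share of all UMIs of the class in a library, on the usual CPM scale) in CD8 T cells and 29 to 45 in CD4 T cells, and the liver ILC1 integrin Itga1 at 151 to 352 CPM in ILC1 and 12 to 26 in NK cells. The ILC1 class held T cell receptor complex transcripts, with Cd3g at 286 to 834 CPM although Cd3e was gated out, and Trac stood at 175 to 413 CPM in gamma-delta T cells. From 13.5% to 30.5% of the cells of a class and library had a UMI of another lineage's markers. In the NK class 4 neutrophil markers summed to 2001, 6352, 2449 and 2283 CPM (GS, URI, WT 1 and WT 2 libraries), and the summed level of 6 immediate early genes was highest in WT 2 and lowest in WT 1 in all 6 classes. The part of these differences in the results below was not tested, other than by leaving out each library and the cells with other-lineage markers.

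Levels are given in CPM, the gene's UMIs over all UMIs of the class in a library. Probe sets differ between genes, so levels are compared between classes and not between genes. Beside a share of cells with a UMI, the share among B cells, gated by Cd79a and Ms4a1, is given as a background (median UMIs 2257 to 4434 in B cells and 2997 to 6880.5 in the lymphocyte classes). How much of the B cell share is free RNA was not tested. The p-values below measure the spread between these libraries, which may be technical, and intervals and floors cover counting error only.

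Tbx21 was at its highest in NK cells and ILC1 and at its lowest in CD4 T cells, an 18.2-fold range of class means. In NK cells it stood at 847, 825, 854 and 914 CPM (GS, URI, WT 1 and WT 2 libraries), and in ILC1 at 841, 597, 759 and 595 CPM in the same order. These ranges overlapped. NKT cells followed at 473, 447, 425 and 474 CPM (GS, URI, WT 1, WT 2) and gamma-delta T cells at 358, 355, 317 and 363 CPM, without overlap with each other or with the classes on either side. CD8 T cells averaged 129 ± 27.6 CPM and CD4 T cells 47.1 ± 15.3 CPM (SD, n = 4 libraries). A Tbx21 UMI was found in 76.6% to 87.5% of NK cells and 75.0% to 86.5% of ILC1, against 7.17% to 12.1% of CD4 T cells and a background of 2.32% to 3.80% in B cells.

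Eomes separated NK cells from every other class. It stood at 619, 540, 710.2 and 535 CPM (GS, URI, WT 1 and WT 2 libraries) in NK cells, and at 72.8, 118, 91.0 and 95.2 CPM in ILC1 in the same order. In ILC1 these values rest on 5, 8, 7 and 3 cells with a UMI. The highest ILC1 library lay far below the lowest NK library. CD8 T cells stood at 109, 87.3, 90.2 and 44.7 CPM (GS, URI, WT 1, WT 2), with WT 2 lowest, and overlapped both ILC1 and gamma-delta T cells, which had 24.7, 34.7, 86.7 and 53.7 CPM. CD4 T cells averaged 9.48 ± 4.58 CPM and NKT cells 5.65 ± 0.831 CPM (SD, n = 4), whose ranges overlapped, and the whole span was 106-fold. The share of cells with an Eomes UMI was 65.2% to 74.2% in NK cells and 10.9% to 23.9% in CD8 T cells, against 0.435% to 1.02% in B cells.

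Zbtb16 was highest in NKT cells, the class whose innate-like program it sets up. NKT cells had 651, 595, 489.8 and 783 CPM (GS, URI, WT 1 and WT 2 libraries), and gamma-delta T cells had 309, 238, 191 and 358 CPM in the same order. The 2 ranges did not overlap, and in both classes WT 1 was lowest and WT 2 highest. ILC1 averaged 108 ± 22.9 CPM and NK cells 76.7 ± 7.67 CPM (SD, n = 4). CD4 T cells had 20.4, 18.9, 19.9 and 91.6 CPM (GS, URI, WT 1, WT 2), with WT 2 far above the other libraries, and CD8 T cells 21.8, 12.1, 15.2 and 19.3 CPM. The share of cells with a Zbtb16 UMI was 62.2% to 78.1% in NKT cells and 22.9% to 44.6% in gamma-delta T cells, against 1.09% to 2.70% in B cells.

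Gata3 was detected in every class within a narrow range of 2.75-fold. NKT cells had 272, 320, 249 and 364 CPM in the GS, URI, WT 1 and WT 2 libraries, and CD8 T cells, the lowest class, had 110, 116, 85.8 and 126 CPM. ILC1 (244 ± 24.2 CPM), gamma-delta T cells (216 ± 55.6), CD4 T cells (180.1 ± 18.4) and NK cells (177 ± 17.6; SD, n = 4 each) lay between them, and each overlapped its neighbours in that order. The CD8 T cell values did not overlap with those of NK cells. A Gata3 UMI was found in 29.3% to 75.8% of cells of a class and library, against 1.16% to 3.00% of B cells.

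Foxp3 was found in a minority of CD4 T cells, at 63.4, 88.6, 98.9 and 101 CPM (GS, URI, WT 1 and WT 2 libraries), from 5.50%, 9.31%, 8.59% and 6.96% of the cells. B cells had a Foxp3 UMI in 0% to 0.478% of cells. In NKT cells Foxp3 stood at 7.37, 8.64, 19.3 and 3.44 CPM (GS, URI, WT 1, WT 2), from 12, 16, 10 and 3 cells. All Foxp3 UMIs of CD8 T cells came to 2, 6, 19 and 12, of gamma-delta T cells to 2, 1, 3 and 3, and of NK cells to 0, 3, 0 and 1 in the same order, too few to give levels. No ILC1 had a Foxp3 UMI, which allows shares of ILC1 with a Foxp3 UMI of up to 5.08%, 5.88%, 5.77% and 9.38% and sets no limit on cells that express the gene without a captured UMI.

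Ikzf2, whose product Helios is best known from regulatory T cells, was highest in gamma-delta T cells. They had 164, 150, 238 and 140 CPM in the GS, URI, WT 1 and WT 2 libraries, above CD4 T cells at 64.6, 86.4, 75.1 and 85.1 CPM in every library. The 2 ranges did not overlap. ILC1 (57.1 ± 3.18 CPM), NKT cells (55.8 ± 19.5) and CD8 T cells (43.6 ± 12.5) followed, and NK cells were lowest at 16.6 ± 3.63 CPM (SD, n = 4 each). NKT cells overlapped CD4 T cells, ILC1 and CD8 T cells, whereas ILC1 lay above CD8 T cells without overlap. An Ikzf2 UMI was found in 27.1% to 45.5% of gamma-delta T cells and 9.29% to 11.5% of CD4 T cells, against 0.300% to 0.751% of B cells.

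Tcf7 and Lef1 ran in the opposite direction to Tbx21. Tcf7 stood at 1249, 1302, 1161 and 1342 CPM in CD4 T cells of the GS, URI, WT 1 and WT 2 libraries, and at 982, 1049, 1022 and 1198 CPM in CD8 T cells. These 2 classes overlapped. Gamma-delta T cells averaged 637 ± 97.2 CPM, NKT cells 242 ± 7.73, NK cells 117 ± 10.2 and ILC1 99.6 ± 61.2 (SD, n = 4 each), and of these steps the one from NK cells to ILC1 overlapped. ILC1 ranged from 35.6 CPM in WT 1 to 167 CPM in WT 2. A Tcf7 UMI was found in 85.7% to 91.8% of CD8 and CD4 T cells and 20.2% to 24.2% of NK cells, against 3.12% to 4.85% of B cells.

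Lef1 stood at 991, 1084, 1125 and 865 CPM in CD4 T cells (GS, URI, WT 1, WT 2) and at 913, 981, 1027 and 860.0 CPM in CD8 T cells, with overlapping ranges. Gamma-delta T cells had 391, 404, 482 and 289 CPM, NKT cells 305, 339, 325 and 255, NK cells 137, 125, 175 and 109, and ILC1 54.6, 95.1, 79.1 and 79.4 CPM. Gamma-delta T and NKT cells overlapped, whereas NK cells lay above ILC1 and below NKT cells without overlap. A Lef1 UMI was found in 29.2% to 44.5% of NK cells, against 4.50% to 12.2% of B cells, the highest share in B cells of the 9 genes.

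Tox was highest in ILC1, at 237, 177, 166 and 222 CPM in the GS, URI, WT 1 and WT 2 libraries. The next class, CD4 T cells, had 111, 122, 93.8 and 123 CPM, with no overlap. CD8 T cells (109 ± 21.1 CPM), gamma-delta T cells (88.3 ± 18.7), NK cells (79.8 ± 12.6) and NKT cells (59.6 ± 10.4; SD, n = 4 each) each overlapped their neighbours. Class means ran over a 3.36-fold range from NKT cells to ILC1. A Tox UMI was found in 42.4% to 60.8% of ILC1, against 0.581% to 1.14% of B cells.

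**Figure D1:**
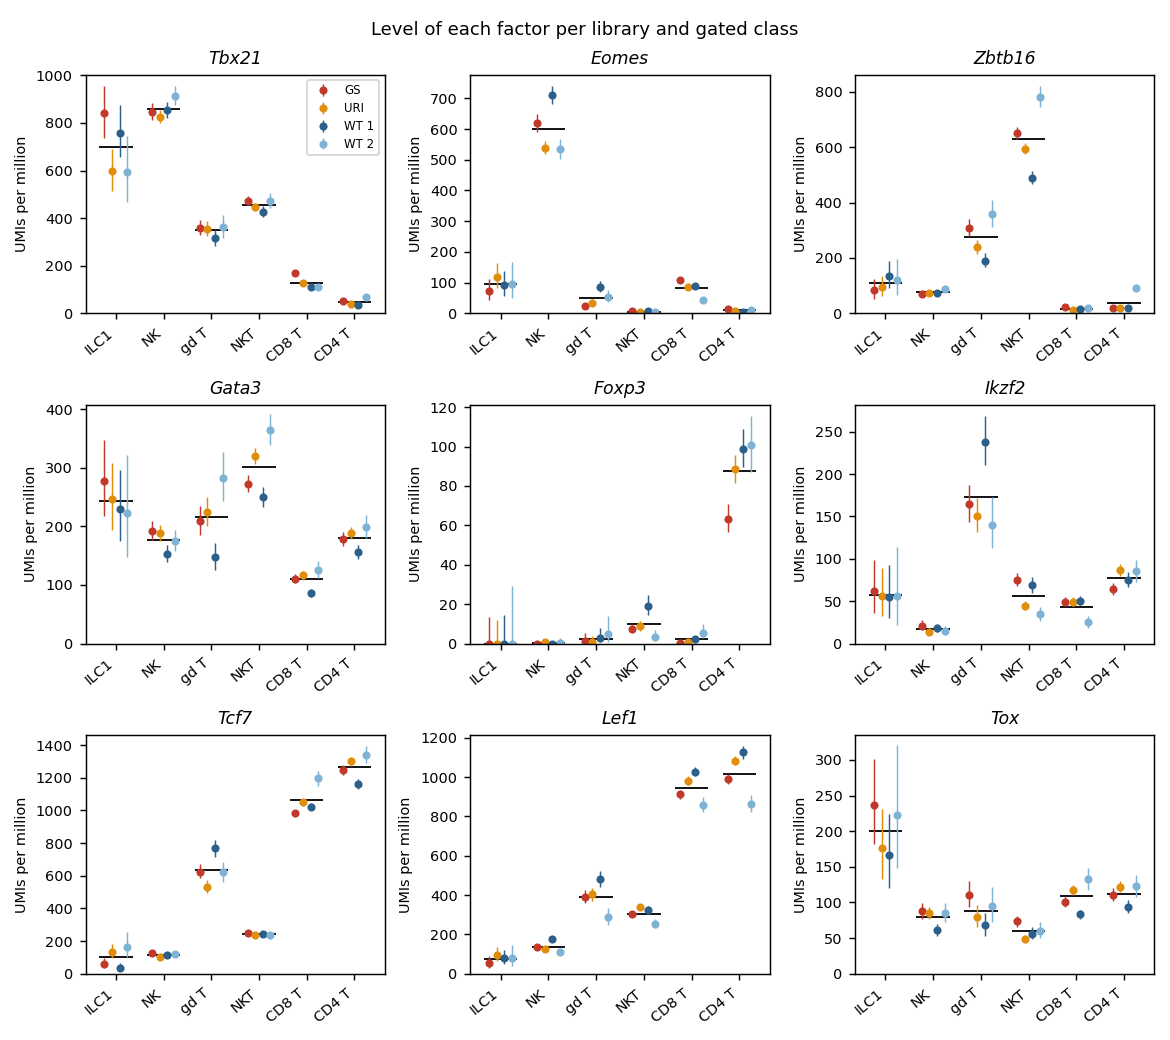
Level of each of the 9 factors (CPM, 1 panel a gene with its own axis) in ILC1, NK, gamma-delta T, NKT, CD8 T and CD4 T cells; each point is 1 library with its 95% Poisson interval for counting error, and each black line the mean of the 4 libraries. Tbx21 and Eomes are high at the left, where NK cells average 859.9 and 601 CPM, and Tcf7 and Lef1 at the right, where CD4 T cells average 1264 and 1016 CPM.

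Classes were compared on the summed UMIs of each class and library with edgeR's quasi-likelihood test, with the library as a block, and p-values were adjusted by Benjamini-Hochberg over all 10414 genes tested. Differences are log2 ratios with their standard error (SE), and a gene is said to rise or fall at an adjusted p under 0.05. All 9 factors passed the filter on low counts. For each comparison, lists of genes tied to the factors were counted as well: other lymphocyte transcription factors, T-box targets, the naive and memory genes of Tcf7 and Lef1, the regulatory genes of Foxp3, the innate-like genes of Zbtb16, the type 2 genes of Gata3 and the inhibitory receptors tied to Tox.

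ILC1 differed from NK cells in 5 of 9 factors, 3 higher and 2 lower, where 16.0% of all genes passed in either direction (7.51% higher, 8.52% lower). Eomes was lower by a log2 ratio of -2.76 (SE 0.28, adjusted p = 4.37e-08) and Lef1 by -0.91 (SE 0.15, adjusted p = 6.57e-05). Tox was higher by 1.25 (SE 0.16, adjusted p = 2.21e-06) and Ikzf2 by 1.71 (SE 0.42, adjusted p = 0.00463), each in 4 of 4 libraries. Gata3 rose by 0.42 (adjusted p = 0.0152), a call lost without the GS library (0.0812), the URI library (0.0511) or WT 1 (0.0542). Tbx21 was at -0.35 (SE 0.13, adjusted p = 0.0640), Tcf7 at -0.40 (0.269) and Zbtb16 at 0.43 (0.516), none of them past the threshold. Tbx21 was lower in 4 of 4 libraries and passed in 4 of 14 alternative runs. Besides thinning, these were no filter on low counts (-0.36), gate genes at 2 or more UMIs (-0.53) and leaving out cells with other-lineage markers (-0.47). After every cell was thinned to 1500 UMIs, the calls of Ikzf2 (0.87), Tox (0.48), Lef1 (-0.16) and Gata3 (0.49) were lost, that of Eomes was kept (-2.64), and Tbx21 passed at -0.54 (adjusted p = 0.0413). In this and the other comparisons of thinned sums, cells were gated again on the thinned counts, so the cells of a class changed along with depth. ILC1 then numbered 21, 18, 27 and 17, against 59, 51, 52 and 32 before (GS, URI, WT 1, WT 2).

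Zfp683, which encodes the liver residency factor Hobit, was the leading other factor, 4.13 higher on the log2 scale, with 1249, 564, 1250 and 809 CPM in ILC1 and 75.3, 42.3, 41.4 and 62.5 CPM in NK cells (GS, URI, WT 1, WT 2). Zeb2, a factor of terminal NK maturation, fell by 2.92, with 98.3, 85.2, 98.9 and 63.5 CPM in ILC1 and 687, 631, 739 and 474 in NK cells. Klf2 (-1.47) and Irf8 (-2.12) were lower too. Of 49 other transcription factors tested, 9 rose and 13 fell, with a median of -0.25 against -0.05 over all genes. The T-box targets divided, 2 rising and 4 falling of 11 (median -0.53): the death ligand Tnfsf10 was 3.58 and the chemokine receptor Cxcr3 2.01 higher, whereas Prf1, the pore former perforin, was -2.11 and S1pr5, a receptor for tissue exit, -3.30. The inhibitory receptors rose in 5 of 7 and fell in none (median 1.93), among them Lag3, with 178, 170, 269 and 190 CPM in ILC1 and 18.3, 17.4, 10.1 and 23.6 CPM in NK cells, and Pdcd1 (5.53). The Foxp3 list (2 up, 0 down of 12, median 0.61), the Zbtb16 list (4 up, 1 down of 11, median 0.40), the Gata3 list (3 up, 0 down of 7, median 0.14) and the naive and memory list (3 up, 1 down of 11, median 0.30) moved as well, and among their genes were Il2ra (2.75), Cd160 (1.93), Ccr8 (3.66) and Il7r (2.23). Summed T cell markers stood at 1770 to 2636 CPM in ILC1 and 643 to 988 CPM in NK cells, and their part in these differences was not tested.

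CD8 T cells, set against CD4 T cells, had more of both T-box factors: Eomes was 3.24 (SE 0.24, adjusted p = 3.90e-11) and Tbx21 1.55 (SE 0.13, adjusted p = 4.57e-10) higher. Foxp3 fell by 5.79 (SE 0.31), Gata3 by 0.72 (SE 0.07, adjusted p = 2.52e-08) and Ikzf2 by 0.77 (SE 0.15, adjusted p = 3.68e-04). The Foxp3 ratio rests on 39 UMIs in CD8 T cells against 1557 in CD4 T cells. The Ikzf2 call was lost after thinning (-0.44, adjusted p = 0.0995). Zbtb16 fell by 0.77 (adjusted p = 0.0300), but in 3 of 4 libraries, and the difference was -0.26 (adjusted p = 0.311) without WT 2 and missed the threshold without the URI library (adjusted p = 0.0578). In all, 2 factors rose and 4 fell of 9, against 26.9% of genes in either direction (13.6% higher, 13.3% lower). Tcf7 (-0.24, adjusted p = 0.103), Lef1 (-0.09, 0.377) and Tox (-0.06, 0.674) did not pass. Zbtb7b, the CD4 lineage factor ThPOK, had 16.9, 15.9, 11.8 and 34.1 CPM in CD8 T cells and 171, 134, 136 and 164 CPM in CD4 T cells (log2 ratio -3.10).

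Of 11 T-box targets tested, 9 rose and none fell in CD8 T cells (median 1.26, against 0.01 over all genes), led by Ccl5 (2.89), Prf1 (1.57), Il2rb (1.26) and S1pr5 (2.91). The Foxp3 list fell in 9 of 12 and rose in 1 (median -1.61): Ctla4 was -1.98, Izumo1r -2.26 and Lrrc32 -5.18, whereas Itgae, the integrin of epithelial-resident T cells, was 3.65 higher. The Gata3 list fell in 3 of 7 and rose in none (median -0.26), with Il1rl1 at -4.67, Ccr8 at -3.51 and Ccr4 at -4.13. Of the other transcription factors, 11 rose and 18 fell of 49 (median -0.13), with Maf at -2.82 and Hopx at 1.27. The naive and memory list (2 up, 4 down of 11, median -0.02), the Zbtb16 list (4 up, 5 down of 11, median -0.19) and the Tox list (2 up, 1 down of 7, median 0.14) moved both ways.

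NKT cells were set against conventional T cells, the average of the CD8 and CD4 classes on the log scale. Zbtb16 was 4.78 (SE 0.15, adjusted p = 1.19e-18), Tbx21 2.58 (SE 0.10) and Gata3 1.10 (SE 0.06) higher. Eomes fell by 2.29 (SE 0.32), Tcf7 by 2.24 (SE 0.11), Lef1 by 1.67 (SE 0.07) and Tox by 0.87 (SE 0.09), so that 3 factors rose and 4 fell of 9, where 48.3% of genes passed in either direction (24.6% higher, 23.7% lower). These 7 factors moved the same way in 4 of 4 libraries. Foxp3 (-0.23, adjusted p = 0.597) and Ikzf2 (-0.06, 0.744) did not pass. The Eomes call was lost after thinning (-0.59, adjusted p = 0.150). Il4, the interleukin that NKT cells release early, had 160, 130, 126 and 140 CPM in NKT cells (GS, URI, WT 1, WT 2) and 2.1 to 12.6 CPM in CD8 and CD4 T cells, with a log2 ratio of 4.88.

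All 11 naive and memory genes fell in NKT cells (median -2.55, against -0.005 over all genes), among them the lymph node homing receptor Ccr7 (-3.06), Igfbp4 (-3.23), Actn1 (-3.15) and Dapl1 (-3.52). The Zbtb16 list rose in 10 of 11 and fell in 1 (median 1.37), led by Klrb1c, which encodes NK1.1 (4.11), Il4, Cd160 (2.91) and Cd44 (1.37). T-box targets rose in 7 of 11 and fell in none (median 1.77), with Il2rb at 2.60, Cxcr3 at 2.39, Fasl at 2.25 and Tnfsf10 at 1.77. The Gata3 list rose in 6 of 7 and fell in 1 (median 1.87), with Ccr4 at 2.25 and Cish at 1.87. Of the other transcription factors 20 rose and 18 fell of 49 (median 0.03), with Maf (2.58) and Rora (1.97) up and Bach2 (-1.45), a repressor of effector genes, down. The Foxp3 list (5 up, 3 down of 12, median 0.26) and the Tox list (5 up, 1 down of 7, median 0.90) included Il2ra (2.98) and Gpr83 (-3.62).

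Gamma-delta T cells differed from conventional T cells in all 9 factors, 5 higher and 4 lower, where 29.9% of genes passed (16.4% higher, 13.5% lower). Zbtb16 was 3.57 (SE 0.19), Tbx21 2.20 (SE 0.11), Ikzf2 1.56 (SE 0.14) and Gata3 0.61 (SE 0.08) higher. Lef1 fell by 1.31 (SE 0.07), Tcf7 by 0.85 (SE 0.10) and Foxp3 by 2.49 (SE 0.64). Eomes was 0.76 higher (SE 0.28, adjusted p = 0.0369) in 3 of 4 libraries. The Eomes call was lost in 9 of 14 alternative runs. Among them were those without WT 1 (0.20, adjusted p = 0.663), WT 2 (0.67) or the URI library (0.88), and DESeq2 (0.82). Tox fell by 0.30 (adjusted p = 0.0386) in 3 of 4 libraries, a call lost without the URI library, WT 1 or WT 2. After thinning to 1500 UMIs, Foxp3 stood at 0.23 and Tox at 0.024, neither of them past the threshold. The Foxp3 difference rests on 9 UMIs in gamma-delta T cells, and its call was lost with the WT libraries alone (-2.34). The gamma-delta lineage factor Sox13 stood at 60.7, 61.7, 92.1 and 99.4 CPM in gamma-delta T cells and 0 to 1.17 CPM in CD8 and CD4 T cells.

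The naive and memory list fell in 10 of 11 and rose in none (median -0.98, against -0.005 over all genes), with Igfbp4 at -3.14 and Ccr7 at -2.18. T-box targets rose in 9 of 11 and fell in none (median 1.78), with Ifng at 2.49, Ccl5 at 2.09 and Il2rb at 2.06. The Zbtb16 list rose in 8 of 11 and fell in 1 (median 1.72), led by Cd160 (3.29), Klrb1c (3.67), Xcl1 (3.26) and Il23r (4.90), the receptor chain of interleukin-23. Other transcription factors rose in 22 and fell in 12 of 49 (median 0.34), and the Gata3 list rose in 4 of 7 (median 0.18). The Foxp3 list divided (4 up, 6 down of 12, median -0.29), with Ctla4 at -2.04, and the Tox list rose in 5 of 7 (median 1.34), with Pdcd1 at 1.91.

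NK cells and ILC1, averaged and set against conventional T cells, also differed in all 9 factors, 5 higher and 4 lower, where 51.8% of genes passed (24.5% higher, 27.3% lower). Tbx21 was 3.42 (SE 0.10), Eomes 3.16 (SE 0.29), Zbtb16 2.07 (SE 0.27) and Gata3 0.66 (SE 0.07) higher. Tcf7 fell by 3.40 (SE 0.11), Lef1 by 3.21 (SE 0.07) and Ikzf2 by 0.89 (SE 0.19), and Foxp3 was called lower from the UMI totals given above. Tox was 0.27 higher (adjusted p = 0.0150), a call lost without the GS library (0.17). The Tox difference averages a class above CD4 T cells, ILC1, with one below them, NK cells, and it turned to -0.12 after thinning. The Ikzf2 call was lost after thinning (-0.70, adjusted p = 0.0900).

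All 11 T-box targets tested rose (median 2.96, against -0.04 over all genes), with Gzma, which encodes granzyme A, at 6.18, Prf1 at 3.81, Ccl5 at 3.27 and Il2rb at 2.75. All 11 naive and memory genes fell (median -3.70), among them Il7r (-3.42), Actn1 (-4.09), Igfbp4 (-6.31) and Dapl1 (-6.57). The Foxp3 list fell in 8 and rose in 3 of 12 (median -2.06), with Izumo1r at -5.13, Ctla4 at -3.77 and Tnfrsf9 at 3.13. The Zbtb16 list rose in 6 and fell in 4 of 11 (median 1.12), with Klrb1c at 5.41 and Xcl1 at 4.70, and the Tox list rose in 6 and fell in 1 of 7 (median 2.02), with Entpd1 at 2.61 and Lag3 at 2.59. Other transcription factors rose in 23 and fell in 21 of 49 (median -0.09), with the T cell factor Bcl11b at -3.64 and Bhlhe40 at 3.47, and the Gata3 list moved in 2 and 2 of 7 (median 0.05).

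**Figure D2:**
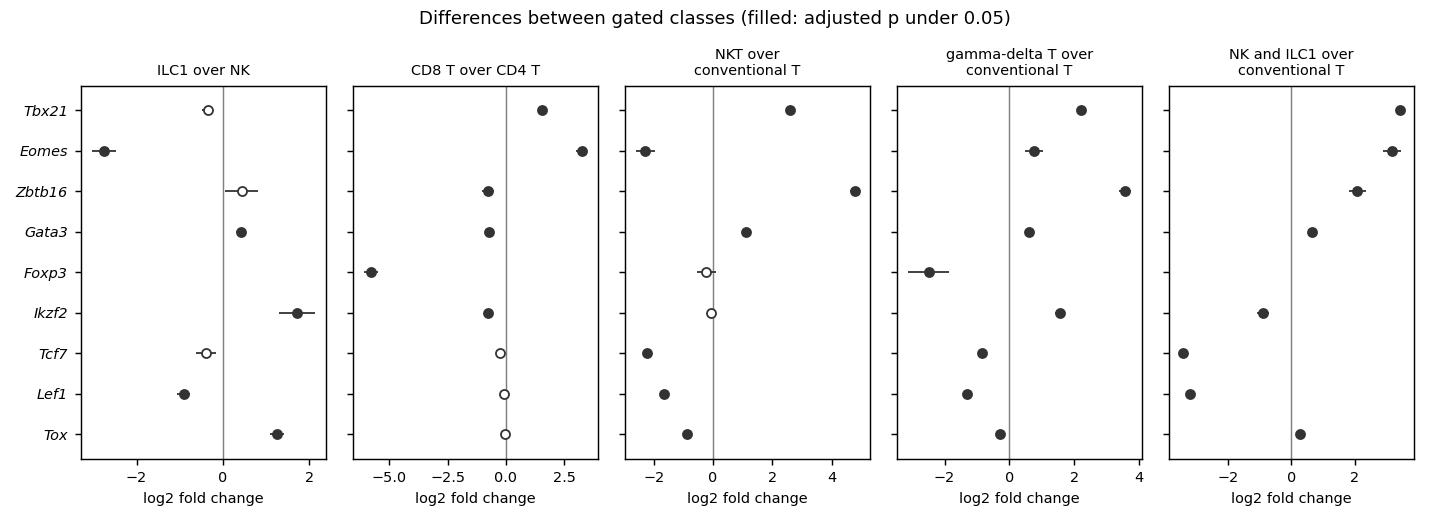
Log2 ratio of each factor (points) with 1 standard error on each side (lines) in 5 comparisons of classes, with filled points for adjusted p under 0.05. Foxp3 is not drawn for ILC1 over NK cells or for NK cells and ILC1 over conventional T cells. Zbtb16 stands at 4.78 in NKT cells, and Tcf7 and Lef1 at -3.40 and -3.21 in NK cells and ILC1, each against conventional T cells.

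Within a class, several of the factors were found together in fewer cells than the product of their shares gives. Every cell was thinned to 1500 UMIs, and the number of cells with UMIs of both factors was divided by the number expected from the product of the single shares in that library. The classes here were those gated on all UMIs. Of 216 pairs of factors and classes, 69 had an expected number of at least 10 in each library, and 8 of these were under 0.8 in 4 of 4 libraries while none was above 1.2 in all 4. In CD4 T cells Foxp3 was found with Tcf7 at 0.470, 0.535, 0.603 and 0.389 of the expected number (GS, URI, WT 1, WT 2) and with Lef1 at 0.508 ± 0.0412 (SD, n = 4). Ikzf2 was found with Lef1 at 0.552 ± 0.0423 and with Tcf7 at 0.636 ± 0.0434, and Tbx21 with Lef1 at 0.525, 0.431, 0.677 and 0.715. In CD8 T cells Tbx21 was found with Lef1 at 0.582 ± 0.0841 and with Tcf7 at 0.676 ± 0.0308, and in NKT cells Zbtb16 with Tcf7 at 0.638, 0.702, 0.699 and 0.680. All 8 pairs joined Tcf7 or Lef1 with another of the factors, as did 47 of the 69 pairs with enough expected cells and 22 of the 26 such pairs in CD4 and CD8 T cells, where 7 of the 8 lie. In NK cells the T-box factors were found together in 989 cells where 953 were expected, a ratio of 1.04 ± 0.0260.

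A further 3 pairs with fewer expected cells were picked after their values were seen. Foxp3 and Ikzf2 were found together in 95 thinned CD4 T cells where 10.8 were expected, with ratios of 8.79, 8.21, 9.66 and 8.93 (GS, URI, WT 1, WT 2). Tbx21 and Zbtb16 were found together in 32 CD4 T cells where 4.05 were expected, with ratios of 7.69, 10.8, 10.5 and 6.22. Tbx21 and Eomes were found together in 103 CD8 T cells where 53.4 were expected, with ratios of 1.77, 2.08, 1.97 and 2.23. Each of these ratios was above 1 in 4 of 4 libraries.

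**Figure D3:**
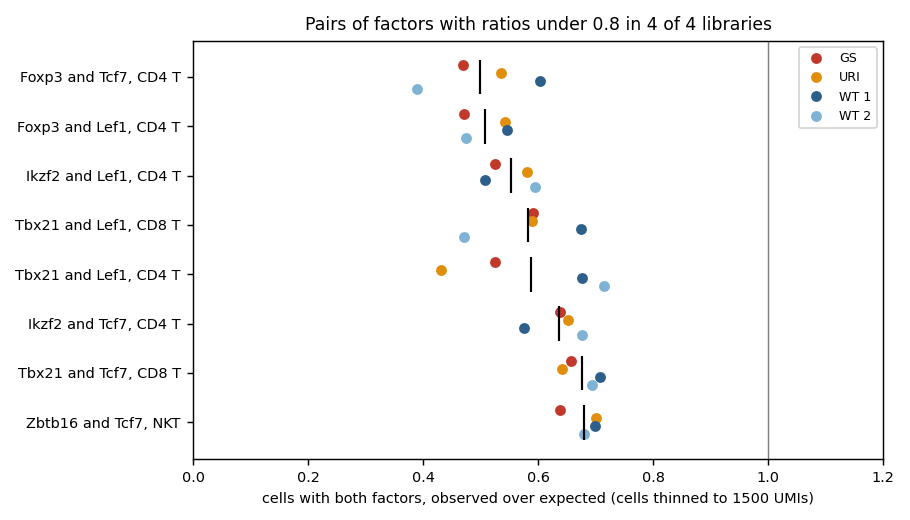
Observed over expected number of cells with both factors, in cells thinned to 1500 UMIs, 1 point a library with the mean as a black line; the grey line marks 1. All 8 pairs shown include Tcf7 or Lef1, and their means run from 0.499 for Foxp3 with Tcf7 in CD4 T cells to 0.680 for Zbtb16 with Tcf7 in NKT cells.

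To see what went with a factor inside a class, cells with at least 1 UMI of it were summed per library and set against the cells of the same class without one, with edgeR's quasi-likelihood test and the library as a block. Cells with a UMI were deeper in median, so that detection is in part a matter of depth, and the factor used to divide the cells is not a result.

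CD4 T cells with a Foxp3 UMI (55, 109, 79 and 39 cells in the GS, URI, WT 1 and WT 2 libraries; median UMIs 4678 to 6007, against 2996 to 5573 in cells without) had far more Ikzf2. It stood at 534, 574, 476 and 625 CPM in them and at 27.5, 21.3, 20.7 and 25.6 CPM in the other CD4 T cells, a log2 ratio of 4.58 (SE 0.10, adjusted p = 6.87e-15). The groups did not overlap. Tox was 0.84 higher (SE 0.11, adjusted p = 2.50e-05), with 205, 198, 135 and 191 CPM against 104, 112, 88.3 and 115, and Gata3 0.54 higher (SE 0.10, adjusted p = 0.00110). Tcf7 was lower at 401, 466, 535 and 564 CPM, against 1316, 1414, 1246 and 1428 CPM (log2 ratio -1.43, SE 0.10), and Lef1 at 409, 429, 627 and 408 CPM, against 1036, 1172, 1193 and 916 (-1.18, SE 0.10). Zbtb16 fell by 2.42 (SE 0.36, adjusted p = 1.21e-04), with 15.1 against 100 CPM in WT 2, and Tbx21 by 1.01 (adjusted p = 0.0102), a call lost without the GS library (-0.89) or the URI library (-0.77) and without cells holding other-lineage markers (-1.02). Eomes did not pass (-0.22, adjusted p = 0.860). The Gata3 call was lost after thinning (0.33). Dropping the library block ended the calls of Zbtb16 (-2.79), Tbx21 (-1.12) and Gata3 (0.52). So 3 factors rose and 4 fell of 8 tested, where 18.1% of 9107 genes passed (11.1% higher, 6.98% lower).

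The Foxp3 list rose in 11 of 11 tested genes (median 3.09, against -0.02 over all genes). Ctla4, an inhibitory receptor of regulatory T cells, had 959, 816, 613 and 841 CPM in cells with Foxp3 and 109, 91.7, 67.6 and 93.9 CPM in cells without, and Il2ra, the interleukin-2 receptor alpha chain, had 539, 421, 406 and 222 CPM against 17.2, 17.1, 19.6 and 27.2. Lrrc32 (5.69) and Capg (2.17) followed. Outside the 9 factors, and among genes with a mean of at least 20 CPM that moved the same way in 4 of 4 libraries, the largest rises were Lrrc32, Klrg1 (5.16), Il1rl1 (5.09), Rln3 (4.89), Itgae (4.65) and Il2ra (4.47). The largest falls were Chil3 (-4.03), Pdlim4 (-3.08), Trbv14 (-2.95), Zfp683 (-2.85), Tgfbr3 (-2.33) and Atp8b4 (-2.13). The naive and memory list fell in 8 and rose in 1 of 11 (median -0.97), with Igfbp4 at -1.94, Ccr7 at -1.02 and Il7r at -0.97. Other transcription factors rose in 15 and fell in 11 of 48 (median 0.26), with Maf at 1.88, Hopx at 1.74, Ikzf3 at 1.34 and Satb1 at -1.32, the Gata3 list rose in 4 of 6 (median 1.68), with Ccr4 at 2.29, and the Tox list in 5 of 6 (median 1.50), with Entpd1 at 1.72. T-box targets rose in 4 and fell in 4 of 10 (median -0.02), and the Zbtb16 list rose in 4 and fell in 2 of 8 (median 0.25). Summed neutrophil markers stood at 3887, 1073, 1095 and 6056 CPM in cells with Foxp3 and 2151, 4962, 2277 and 1775 CPM in cells without, and summed B cell markers at 791 to 1276 against 307 to 460 CPM; their part was not tested.

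CD8 T cells with an Ikzf2 UMI (141, 167, 171 and 35 cells; median UMIs 4600 to 7378, against 3678 to 6296 in cells without) had more Tbx21, at 289, 208, 218 and 101 CPM against 149, 111, 93.3 and 110 CPM (log2 ratio 0.96, SE 0.11, adjusted p = 1.54e-04). The WT 2 library, with the fewest cells, did not share the direction. Zbtb16 was 1.44 higher (adjusted p = 0.00577), with 37.9, 18.9, 38.0 and 89.2 CPM against 19.2, 10.7, 11.4 and 13.5, and Tox 0.55 higher (adjusted p = 0.0141), a call lost without the GS library (0.40). Lef1 fell by 0.42 (adjusted p = 0.00107) and Tcf7 by 0.34 (adjusted p = 0.00204), each in 4 of 4 libraries. Without the library block none of these 5 calls was made, with Tbx21 at 0.90, Zbtb16 at 1.44, Tox at 0.55, Lef1 at -0.40 and Tcf7 at -0.36. Eomes (0.22) and Gata3 (-0.01) did not pass, so that 3 factors rose and 2 fell of 7, where 5.43% of 9321 genes passed (3.60% higher, 1.82% lower).

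The largest rise among the genes named by their size was in Klra6. This NK cell lectin-like receptor had 200, 86.7, 108 and 35.7 CPM in CD8 T cells with Ikzf2 and 15.6, 6.76, 6.77 and 4.49 CPM in those without (3.74), followed by Klra7 (3.60), Spry2 (3.44), Tcrg-C2 (3.43), Tcrg-C4 (3.34) and Xcl1 (2.74). Fcgrt (-1.25), Gzmm (-1.15), Lcn2 (-1.13), Tgfbr3 (-1.09), Sema4f (-0.99) and Il6ra (-0.95) fell most. T-box targets rose in 7 and fell in 1 of 11 (median 0.59, against -0.006 over all genes), with Ifng at 1.40 and Gzmb at 1.52, and the Tox list rose in 4 of 6 (median 1.83), with Pdcd1 at 2.09 and Lag3 at 1.79. Of the naive and memory genes 7 of 11 fell (median -0.30), and the Zbtb16 list rose in 5 of 9 (median 0.56), with Klrb1c at 2.55 and Cd160 at 1.87. Other transcription factors rose in 12 and fell in 6 of 45, with Zfp683 at 1.75 and Nr4a2 at 1.04. Of the Foxp3 list 1 rose and 1 fell of 10, and of the Gata3 list 2 rose of 4. Summed gamma-delta markers stood at 219, 118, 185 and 35.7 CPM in CD8 T cells with Ikzf2 and at 49.2, 43.1, 37.3 and 28.5 CPM in those without, although Trdc was gated out, and their part was not tested.

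CD8 T cells with an Eomes UMI (299, 281, 319 and 60 cells; median UMIs 4501.5 to 7840, against 3613 to 6168 in cells without) also had more Tbx21, at 256, 188, 183 and 147 CPM against 135, 103, 85.3 and 104 CPM (log2 ratio 0.94, SE 0.07, adjusted p = 4.69e-06). Gata3 was 0.44 higher (SE 0.07, adjusted p = 0.00149), with 133, 152, 101 and 150 CPM against 102, 102, 80.2 and 122, a call lost after thinning (0.56). Lef1 was lower at 641, 715, 795 and 687 CPM, against 1018, 1088, 1111 and 887 CPM (-0.52, SE 0.05, adjusted p = 4.67e-05). Dropping the library block ended the calls of Tbx21 (0.91), Gata3 (0.41) and Lef1 (-0.51). Tcf7 did not pass (-0.16, adjusted p = 0.0991), nor did Zbtb16 (-0.99, 0.0604), Ikzf2 (0.30, 0.334) or Tox (-0.09, 0.603), so that 2 factors rose and 1 fell of 7, where 8.35% of 9546 genes passed (4.83% higher, 3.52% lower).

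T-box targets rose in 10 of 11 and fell in none (median 0.83, against -0.002 over all genes), with Ccl5 at 1.30, Cxcr3 at 1.15 and Il2rb at 0.83. Cd163l1 (2.46), Gzmm (2.01), the proliferation gene Mki67 (1.93), Ctla2a (1.92) and Lrrk1 (1.86) were among the genes that rose most. The largest falls were Igha (-3.05) and Jchain (-2.56), both plasma cell genes, Itgae (-2.14), Ccr9 (-1.84), Syt6 (-1.82) and Kcna2 (-1.47). Itgae had 37.0, 52.5, 66.8 and 64.9 CPM in CD8 T cells with Eomes and 227, 245, 231 and 267 CPM in those without. In the naive and memory list 8 of 11 fell and none rose (median -0.30), the Foxp3 list fell in 4 and rose in 1 of 10 (median -0.31), and the Tox list rose in 4 and fell in 1 of 7 (median 0.62). Other transcription factors rose in 11 and fell in 4 of 46, with Myb at 1.28, Hopx at 0.95 and Bhlhe40 at 0.87. Of the Zbtb16 list 2 rose and 1 fell of 9, and of the Gata3 list 1 rose of 3. Summed monocyte and macrophage markers stood at 783, 932, 921 and 1186 CPM in CD8 T cells with Eomes and 438, 407, 464 and 615 CPM in those without, and summed gamma-delta markers at 91.2, 110, 88.1 and 75.2 against 66.4, 34.0, 47.6 and 21.8 CPM. Their part was not tested.

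In the NKT class, 612, 628, 336 and 354 cells had a Zbtb16 UMI and 238, 190, 204 and 99 had none (GS, URI, WT 1, WT 2; median UMIs 4283.5 to 7133 against 3780 to 5470). Tcf7 was lower in the cells with Zbtb16, at 151, 166, 152 and 131 CPM against 614, 560, 445 and 642 CPM (log2 ratio -1.90, SE 0.10, adjusted p = 1.18e-06). Tbx21 was higher, at 526, 489, 497 and 522 CPM against 282, 256, 273 and 284 CPM (0.88, SE 0.07, adjusted p = 9.00e-06). Neither pair of ranges overlapped. Eomes fell by 2.92 (adjusted p = 2.11e-04), with 3.22, 2.02, 1.89 and 1.85 CPM against 18.7, 18.6, 15.1 and 17.0 CPM. Foxp3 (-3.17, adjusted p = 5.83e-04) and Lef1 (-0.47, 6.22e-04) were lower and Gata3 higher (0.32, 0.00971), and Tox did not pass (-0.14, 0.680). Ikzf2 fell by 1.17 (adjusted p = 5.07e-05), with 59.7, 35.2, 49.5 and 29.6 CPM against 131, 87.5, 111 and 53.3, but stood at 0.086 after thinning, which also ended the Gata3 call (0.38). Dropping the library block ended the Gata3 call as well (0.34). In all 2 factors rose and 5 fell of 8, where 15.9% of 9124 genes passed (7.21% higher, 8.66% lower).

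Il4 had 203, 151, 173 and 171 CPM in cells with Zbtb16 and 6.25, 33.5, 26.2 and 19.4 CPM in cells without (3.01), and Il17rb (2.98), Chdh (2.70), Pak6 (2.61), Ckb (2.24) and Tmem273 (2.23) followed among the largest rises. Il17a, which encodes interleukin-17A, ran the other way, with 1.74, 1.21, 1.41 and 1.85 CPM in cells with Zbtb16 and 76.7, 39.1, 25.2 and 60.6 CPM in cells without (-5.01), as did Ccr6 (-3.46), Gprin3 (-3.40), Nebl (-3.05), Il17re (-2.94) and Cd8b1 (-2.87). The naive and memory list fell in 10 and rose in 1 of 11 (median -1.80, against 0.004 over all genes), with S1pr1 at -2.36 and Ccr7 at -1.80. T-box targets moved both ways, 5 up and 3 down of 10 (median 0.41), with Gzma at -2.53, and so did the Zbtb16 list, 4 up and 3 down of 11 (median 0.03), with Klrb1c at 1.32, Cd160 at 1.25 and Il18r1 at -1.69. The Foxp3 list rose in 4 and fell in 5 of 9 (median -1.49), with Ctla4 at -2.63, the Gata3 list fell in 3 of 5 (median -0.67), and the Tox list rose in 3 and fell in 1 of 5 (median 0.63). Of 46 other transcription factors 11 rose and 13 fell (median -0.12), with Zfp683 at 1.74, Id2 at 0.89 and Klf2 at -1.60. Summed gamma-delta markers stood at 424, 258, 529 and 140 CPM in NKT cells with Zbtb16 and 167, 128, 215 and 72.7 CPM in those without, summed ILC1 markers at 4063, 4454, 3997 and 3700 against 2401, 2740, 2782 and 2405 CPM, and summed B cell markers at 128 to 351 against 415 to 624 CPM. Their part was not tested.

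NK cells with a Tcf7 UMI numbered 158, 185, 184 and 138 (median UMIs 3682.5 to 5690, against 2820 to 5159 in cells without). Ikzf2 was higher in them, at 31.3, 28.0, 36.4 and 23.2 CPM against 17.4, 7.98, 12.1 and 11.2 CPM (log2 ratio 1.33, SE 0.25, adjusted p = 0.00139), and so was Tox, at 103, 131, 76.9 and 129 CPM against 82.5, 69.0, 56.0 and 69.1 (0.66, SE 0.12, adjusted p = 0.00102). Eomes was 0.23 higher (adjusted p = 0.0114), a call lost without the URI library or WT 1, and Gata3 0.30 higher (adjusted p = 0.0301), a call lost without the GS library, WT 1 or WT 2. Tbx21 was lower, at 807, 737, 684 and 766 CPM against 862, 855, 908 and 968 CPM (-0.27, adjusted p = 0.00404), a call lost without WT 1. Lef1 (0.30, adjusted p = 0.0557) and Zbtb16 (-0.03, 0.954) did not pass. After thinning, all 5 calls were lost: Ikzf2 stood at 1.28, Tox at 0.63, Gata3 at 0.44 and Tbx21 at -0.35, near or above their unthinned size, and Eomes at -0.028. Dropping the library block also ended all 5 calls. Here 4 factors rose and 1 fell of 7, where 6.78% of 8929 genes passed (3.45% higher, 3.33% lower).

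Kit (2.95), Il7r (2.10), Emb (2.05), Kbtbd11 (1.83), Myb (1.69) and Tnfrsf26 (1.68) rose most, and Emb had 326, 261, 391 and 402 CPM in NK cells with Tcf7 and 77.7, 61.6, 102 and 86.8 CPM in those without. The naive and memory list rose in 5 of 9 and fell in none (median 0.40, against 0.002 over all genes), with Cd27, a receptor of less mature NK cells, at 1.53. T-box targets fell in 7 and rose in 2 of 11 (median -0.27), with Klrg1, a marker of mature NK cells, at -1.34, Gzmb at -1.14, Gzma at -0.82 and Prf1 at -0.80. Zeb2 (-0.80) and Irf8 (-0.53) were among the 5 of 45 other transcription factors that fell, and 11 rose (median 0.18). The Zbtb16 list rose in 4 and fell in 1 of 8 (median 0.21), with Cd160 at 1.34, the Foxp3 list rose in 2 of 4, the Gata3 list in 1 of 3, and the Tox list rose in 1 and fell in 1 of 5. The 6 largest falls, Ngp (-4.51), Wfdc21 (-3.75), Lcn2 (-3.42), Cd177 (-3.39), Ifitm6 (-2.88) and Mmp8 (-2.76), were neutrophil genes, and summed neutrophil markers stood at 465, 548, 942 and 1480 CPM in NK cells with Tcf7 and 2571, 8341, 2930 and 2579 CPM in those without. The summed NK markers were lower as well, at 7991, 7223, 11265 and 5577 CPM against 13355, 11047, 16098 and 8578 CPM. The part of these differences was not tested.

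**Figure D4:**
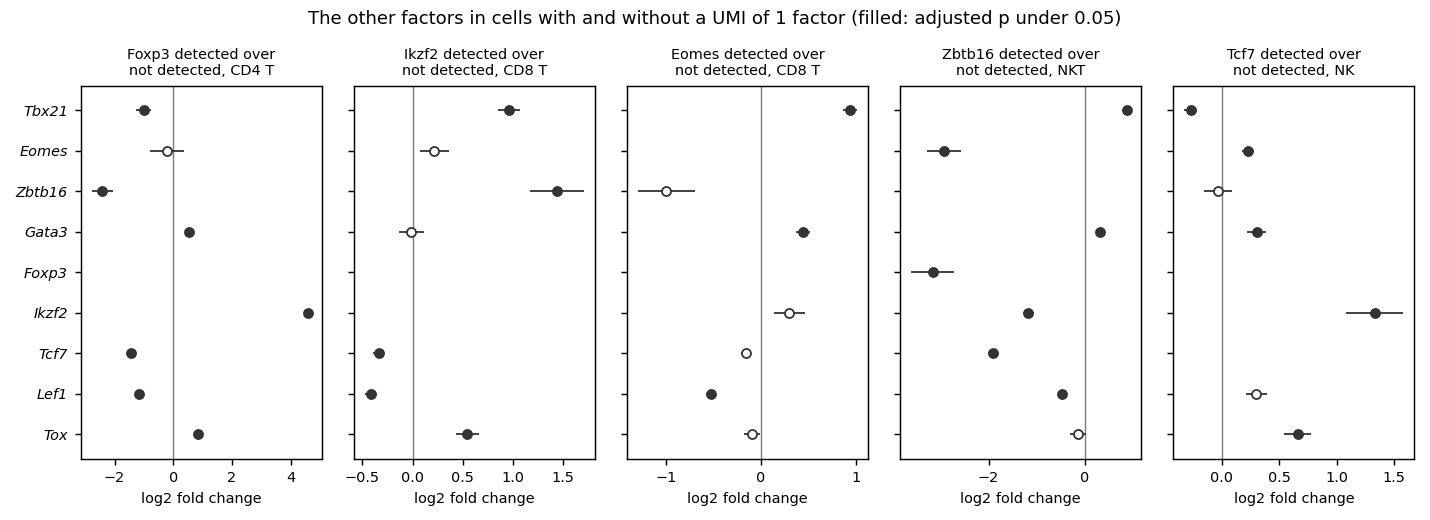
Log2 ratio of each factor (points, with 1 standard error on each side) in cells with a UMI of the named factor over cells of the same class without one, with filled points for adjusted p under 0.05. Ikzf2 stands at 4.58 in CD4 T cells with Foxp3, and Tcf7 at -1.90 in NKT cells with Zbtb16.

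The comparison the study was built on sets the livers of GS(+/delta)Hep or URI(+/delta)Hep mice against those of WT mice. Within each class it rests on 1 library of each knockout genotype and 2 WT libraries, with 1 residual degree of freedom. No factor passed an adjusted p of 0.05 in any class by edgeR or by DESeq2, out of 51 tests for each genotype, and 3 GS tests and 1 URI test had an unadjusted p under 0.05. The background was as low: across all genes, 0 to 0.0376% passed in a class for GS (0.00902% in CD8 T, 0.0376% in NKT, 0.00985% in NK cells and 0 in the others). For URI it was 0.0743% in CD4 T, 0.00902% in CD8 T, 0.113% in NKT, 0.104% in gamma-delta T, 0.0788% in NK cells and 0.0570% in ILC1. The log2 ratios ran from -3.64 to 0.89 for GS (median -0.02) and from -2.28 to 0.56 for URI (median -0.05). Of the 54 levels, the GS library lay above both WT libraries in 17, below both in 11 and between them in 26, and the URI library in 9, 13 and 32. Foxp3 in ILC1, without a UMI in any library, is counted as between. The same count was not made over all genes, so it is not a result about the factors.

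Eomes in gamma-delta T cells was the factor farthest from WT by unadjusted p in the GS library: 24.7 CPM in the GS library and 34.7 CPM in the URI library, against 86.7 CPM in WT 1 and 53.7 CPM in WT 2. Its log2 ratio was -1.56 for GS (SE 0.57, unadjusted p = 0.00649 by edgeR's quasi-likelihood test, not past adjustment) and -1.05 for URI (unadjusted p = 0.0548). Zbtb16 in CD4 T cells was at -1.44 for GS and -1.54 for URI (unadjusted p = 0.0276 and 0.0193 in the same fits), with WT 2 alone high. Without WT 2 these ratios were 0.043 and -0.05, and without WT 1 they were -2.20 and -2.30. Foxp3 in CD8 T cells rested on 2 UMIs in the GS library, and Foxp3 in CD4 T cells was at -0.67 for GS (unadjusted p = 0.0885). The effect of genotype was also tested for a difference between classes: 2 genes passed for GS (0.0192% of genes) and 5 for URI (0.0480%), none of them 1 of the 9 factors. Without cells holding other-lineage markers, the GS effect on Eomes differed between classes (adjusted p = 0.00700 by edgeR's quasi-likelihood test), and with no filter on low counts those on Eomes and Zbtb16 did for both genotypes.

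**Figure D5:**
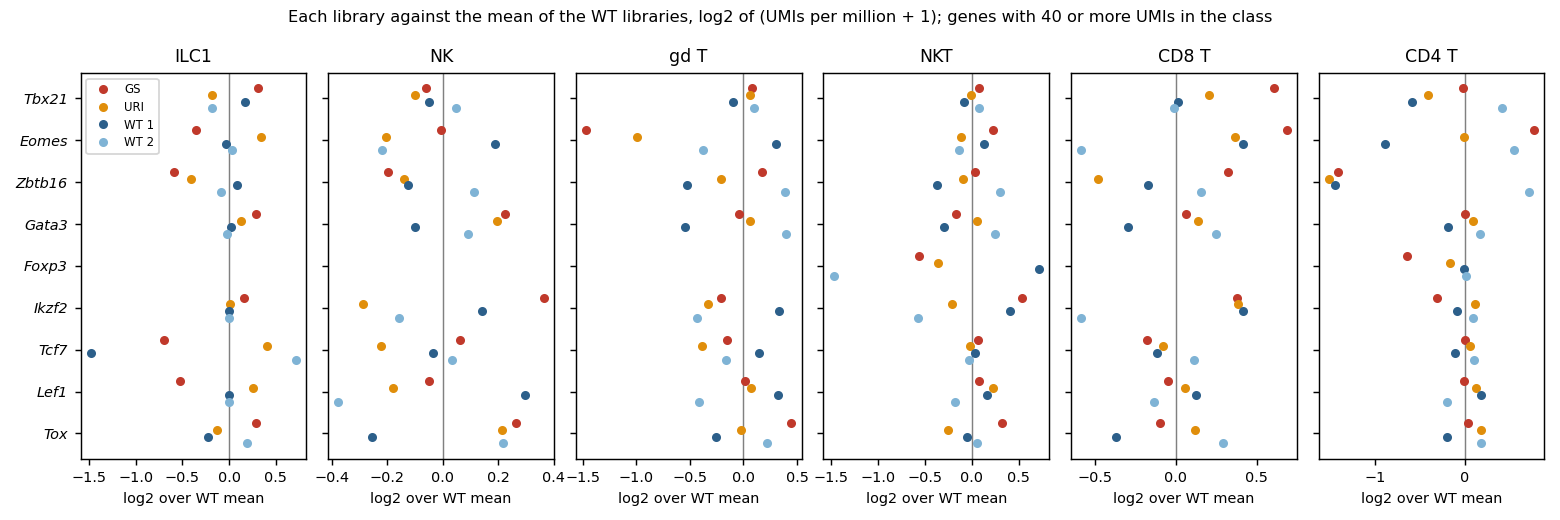
Level of each factor in the GS, URI, WT 1 and WT 2 libraries (points) as a log2 ratio over the mean of the 2 WT libraries, on CPM + 1, for genes with at least 40 UMIs in the class; each class has its own axis range. Eomes in gamma-delta T cells lies lower in the GS and URI libraries (24.7 and 34.7 CPM) than in WT 1 and WT 2 (86.7 and 53.7 CPM), and Zbtb16 in CD4 T cells is high in WT 2 alone (91.6 CPM).

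The genes whose pattern was most like each factor were ranked by Pearson's r of log2(CPM + 1) over the 24 sums of 6 classes in 4 libraries. The 7722 genes ranked were those with a mean of at least 20 CPM, and the factors whatever their mean. These 24 points share libraries and class marks, so r is a description. Tbx21 ran with Il12rb2, an interleukin-12 receptor chain (r = 0.979), Chsy1 (0.976) and Il2rb (0.972). Eomes ran with Lrrk1 (0.914), Plek (0.909) and S1pr5 (0.908), and Tcf7 with Kmt2d (0.967), S1pr1 (0.967) and Ccr7 (0.962). Lef1 ran with Zc3h12d (0.977), Zbtb16 with Fam129a (0.899), Gata3 with Maf (0.906), Foxp3 with St8sia6 (0.910) and Pdlim4 (0.908), Ikzf2 with Rnf144a (0.847) and Tox with Lag3 (0.825). The Foxp3 sums of CD8 T, gamma-delta T and NK cells and ILC1 held few or no UMIs, as given above. Pdlim4 was also among the largest falls in CD4 T cells with a Foxp3 UMI. Between factors, r was 0.946 for Tcf7 with Lef1, 0.812 for Zbtb16 with Gata3, -0.890 for Tbx21 with Lef1 and -0.875 for Tbx21 with Tcf7.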

How the data were processed

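Libraries were made from CD45-sorted liver cells of GS(+/delta)Hep, URI(+/delta)Hep and WT mice (1, 1 and 2 libraries) with a fixed-cell probe assay. The authors deposited raw UMI counts per gene and barcode, made with Cell Ranger 8.0.0 on mm10 per the submitters' processing notes; other steps are not given in the sources used here. The deposited matrices listed all barcodes, so those with at least 500 UMIs were taken as cells, with no other filter, and no doublets were removed. As an alternative, cells with under 250 genes, over 10% mitochondrial UMIs or a Scrublet score above 0.191 were left out, which marked 4.30% to 5.08% as doublets. That threshold was the median of the automatic ones, since WT 1's own found 0 doublets.

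Raw counts were summed per gated class and library and tested in edgeR 4.0.16 (TMM scaling, filterByExpr, quasi-likelihood F test) in R 4.3.3, with Benjamini-Hochberg adjustment over all genes tested. Class comparisons and comparisons of cells with and without a UMI had the library as a block, because both sides come from the same library. Genotypes were compared within each class, and a class-by-genotype term tested whether effects differed. DESeq2 1.42.0, RLE scaling, no filter, at least 1000 UMIs, thinning to 1500 UMIs, gate genes at 2 or more UMIs, leaving out cells with other-lineage UMIs, leaving out each library and WT libraries alone were the alternatives. For the thinned sums, cells with fewer UMIs were dropped, and gates and detection were read again from the thinned counts. The steps were also run on simulated counts with known changes and a single dispersion for all genes, with results not reported here. Sums and shares used Python 3.11.15 with scanpy 1.11.5.

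The 9 genes are always named. Of each gene list up to 4 genes with the smallest adjusted p are named, and for cells with and without a UMI also the 6 largest rises and falls with a mean of at least 20 CPM and the same direction in 4 of 4 libraries. Pairs of factors are named where at least 10 cells are expected in each library and the ratio is above 1.2 or below 0.8 in all. Exceptions are said where they occur, and a few genes that the rule names are not reported here. The members and lists were chosen with earlier results of these data known.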

Additional observations from a re-analysis of the deposited data

How the results depend on the processing

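Of 36 class differences of the factors past the threshold, 24 kept their direction and side under every alternative run, and of 27 differences between cells with and without a UMI, 8 did. Calls were fewer after thinning, which changed depth, gates and detection together. Thinning every cell to 1500 UMIs and gating again left 1162 genes called between CD8 and CD4 T cells (2799 unthinned), 419 between ILC1 and NK cells (1669), 2596 in NKT cells (5030), 1550 in gamma-delta T cells (3117) and 2356 in NK cells and ILC1 (5396). For cells with and without a UMI it left 228 for Foxp3 (1644), 82 for Ikzf2 (506), 143 for Eomes (797), 259 for Zbtb16 (1448) and 127 for Tcf7 (605). With the WT libraries alone the counts in the same order were 948, 616, 2601, 1317 and 3441, then 795, 57, 115, 947 and 260. Dropping the replicate block by library gave 871, 1027, 2580 and 1634 for the first 4 class comparisons, and 795, 53, 74, 598 and 38 for Foxp3, Ikzf2, Eomes, Zbtb16 and Tcf7. DESeq2 called 1094 genes for Foxp3, 484 for Eomes and 250 for Tcf7. Leaving out cells with other-lineage UMIs gave 1003 for Foxp3, gate genes at 2 or more UMIs 658 for Zbtb16, and no filter on low counts 859 for Ikzf2. Leaving out 1 library gave 1966 to 2577 genes for CD8 over CD4 T cells, 1126 to 1473 for ILC1 over NK cells, 1082 to 1605 for Foxp3, 226 to 594 for Ikzf2, 378 to 910 for Eomes, 809 to 1315 for Zbtb16 and 364 to 538 for Tcf7.

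Over the 6 classes, GS over WT called 6 genes, against 3 with DESeq2, 15 with no filter, 20 with gate genes at 2 or more UMIs, 2 with the gene, mitochondrial and doublet filter, and 0 after thinning or without other-lineage cells. URI over WT called 43, against 17, 6 after thinning, 23 with the gene, mitochondrial and doublet filter and 9 without other-lineage cells. The GS effect differed between classes in 2 genes, against 110 with no filter, 6 after thinning and 8 with the stricter gate, and the URI effect in 5, against 3 with DESeq2, 157 with no filter, 9 after thinning and 0 without other-lineage cells. Among the factors, Eomes and Zbtb16 passed that test with no filter on low counts for GS (adjusted p = 3.48e-08 and 1.18e-04 by edgeR's quasi-likelihood test) and URI (0.0168 and 0.00185), and Eomes for GS without other-lineage cells (0.00700). No paired analysis was possible because the genotypes share a single replicate number, and without 1 WT library no residual degrees of freedom remain.

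Log2 ratios that changed sign were mostly small. Thinning gave 3.93 for Foxp3 and -0.20 for Zbtb16 in ILC1 over NK cells, 0.33 for Ikzf2 in NKT cells, 0.23 for Foxp3 and 0.024 for Tox in gamma-delta T cells, -0.12 for Tox in NK cells and ILC1, 0.084 for Tox with Eomes, 0.086 for Ikzf2 with Zbtb16 and -0.028 for Eomes with Tcf7. Gate genes at 2 or more UMIs gave -0.36 for Zbtb16 in ILC1 over NK cells, 0.024 for Gata3 with Ikzf2 and 0.21 for Tox with Zbtb16, and leaving out other-lineage cells gave 0.025 and 0.012 for these last pairs. DESeq2 gave 1.31 for Foxp3 in ILC1 over NK cells. With the WT libraries alone Gata3 stood at 0.10 with Ikzf2 and Eomes at 0.86 with Foxp3. Leaving out 1 library, Ikzf2 in NKT cells ran from -0.29 to 0.13, Foxp3 in NKT cells from -0.46 to 0.16, Gata3 with Ikzf2 from -0.20 to 0.076, Tox with Zbtb16 from -0.37 to 0.096, Eomes with Foxp3 from -1.07 to 0.30, Eomes with Ikzf2 from -0.047 to 0.41, Zbtb16 with Tcf7 from -0.11 to 0.070 and GS over WT for Zbtb16 in CD4 T cells from -2.20 to 0.043. The cause was not tested. Before thinning, the ratio of Foxp3 in ILC1 over NK cells rests on 4 UMIs in all, each of them in NK cells. The thinned ratio of Foxp3 comes from classes gated again on the thinned counts, so it rests on other cells.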

Other observations

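Zbtb16 was also found outside the lymphocyte classes. In barcodes gated as neutrophils by Csf3r and at least 20 UMIs of S100a8, with none of Cd3e, Ncr1 or Cd79a, Zbtb16 stood at 54.5, 35.3, 51.6 and 61.2 CPM (GS, URI, WT 1 and WT 2 libraries). A Zbtb16 UMI was found in 17.9%, 14.1%, 14.1% and 13.5% of these barcodes, and in 8.69%, 6.04%, 6.90% and 7.44% after thinning to 1500 UMIs, against 1.09% to 2.70% of B cells before thinning. Tbx21 was found in 1.41% to 1.74% of the same neutrophils, under its share in B cells.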
